A study of Mus musculus with 2 samples.

Results

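Of the 59175 LSD1 peaks mapped in mouse primary brown adipocytes, 926 lay over divergent promoters, short stretches of DNA from which 2 protein-coding genes are read in opposite directions. A peak was counted as divergent when its midpoint lay within 1 kb of annotated transcript starts of 2 different protein-coding genes, the minus-strand gene starting upstream of the plus-strand gene and the starts being at most 1 kb apart. These peaks made up 1.56% of the list and 7.04% of the 13145 peaks within 1 kb of any protein-coding start. They were compared with 11957 promoter peaks that had a single protein-coding gene in reach, and 262 promoter peaks with several genes in other arrangements were set apart.

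The study holds 2 libraries, 1 from an immunoprecipitate made with a laboratory-raised LSD1 antibody and 1 of input DNA with no antibody, and the peak list of the first was analysed here. Both came from cells of the C57BL/6 N strain with the genotype "Control", kept for 2 to 3 passages, which grew on collagen with 20% serum. Adipogenesis was induced with a mixture of 500 µM isobutylmethylxanthine, 1 nM T3, 125 nM indomethacin, 1 µM rosiglitazone, 1 µM dexamethasone and 850 nM insulin, and the cells were fixed for 5 min after 10 days. The list gives positions and a score per peak but no expression values, so the labelled cell type could not be checked against marker genes. There was 1 library and no replicate, read depth is unknown, and every interval given is a 95% interval that covers counting error over peaks, genes or pairs and not the variation between cultures.

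LSD1 (Kdm1a) is a histone demethylase that uses a flavin cofactor and acts in complexes with CoREST proteins and histone deacetylases. Head-to-head gene pairs are a common arrangement in mammalian genomes. The promoters they share are mostly CpG islands without a TATA box, often join genes for DNA repair, mitochondria and other housekeeping work, and are known to be rich in sites for ETS factors, NRF1, YY1 and NF-Y.

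The DNA between the starts is shown for 3 long-known pairs, chosen because the same textbook arrangement appears with 3 different motif contents. All are mm10 plus-strand sequence from the first base after the minus-strand gene's start to the last base before the plus-strand gene's start, and no annotated exon lies in them. The pair of a small-subunit ribosomal protein and a vesicle-tethering protein, Rps18/Vps52, spans chr17:33955678-33955811 and carried a peak with a score of 631. The 2 subunits of the mitochondrial trifunctional protein of fatty acid oxidation, Hadha/Hadhb, face each other across chr5:30155163-30155247, and the peak there scored 446. The telomerase-associated Wrap53 and the tumour suppressor Trp53 are separated by chr11:69580256-69580358, and the higher of the 2 peaks in reach scored 270. Capitals mark the ETS motif on the reverse strand in the first sequence and the NF-Y motif on the reverse strand in the third, and the second held none of the 11 motifs searched.
Rps18/Vps52: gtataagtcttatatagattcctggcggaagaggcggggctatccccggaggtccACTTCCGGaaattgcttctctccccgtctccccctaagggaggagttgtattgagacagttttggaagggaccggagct
Hadha/Hadhb: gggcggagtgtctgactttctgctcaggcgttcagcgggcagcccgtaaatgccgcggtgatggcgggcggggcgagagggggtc
Wrap53/Trp53: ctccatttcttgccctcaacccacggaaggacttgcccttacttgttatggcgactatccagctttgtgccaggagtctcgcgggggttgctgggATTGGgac

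The highest scores of all divergent peaks lay over pairs of replication-dependent histone genes, and 3 of these gaps are shown because their base composition differs from that of other divergent promoters. They lie at chr13:23683949-23684198 for Hist1h2ac/Hist1h2bc, chr13:21787219-21787460 for Hist1h2an/Hist1h2bp and chr13:21833508-21833742 for Hist1h2ap/Hist1h2br, on the plus strand of mm10. Capitals mark NF-Y motifs in all 3, TATA motifs on the reverse strand in the first and second, and a C/EBP motif in the first.
Hist1h2ac/Hist1h2bc: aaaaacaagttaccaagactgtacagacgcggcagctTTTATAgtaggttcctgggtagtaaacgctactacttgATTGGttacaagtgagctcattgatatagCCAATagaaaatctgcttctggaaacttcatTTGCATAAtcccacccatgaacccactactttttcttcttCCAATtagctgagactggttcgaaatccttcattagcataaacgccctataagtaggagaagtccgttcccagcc
Hist1h2an/Hist1h2bp: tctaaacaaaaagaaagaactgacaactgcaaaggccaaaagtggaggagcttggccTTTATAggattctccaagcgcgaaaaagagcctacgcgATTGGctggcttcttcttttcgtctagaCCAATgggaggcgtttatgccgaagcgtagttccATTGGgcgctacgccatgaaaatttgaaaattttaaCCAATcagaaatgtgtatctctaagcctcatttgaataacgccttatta
Hist1h2ap/Hist1h2br: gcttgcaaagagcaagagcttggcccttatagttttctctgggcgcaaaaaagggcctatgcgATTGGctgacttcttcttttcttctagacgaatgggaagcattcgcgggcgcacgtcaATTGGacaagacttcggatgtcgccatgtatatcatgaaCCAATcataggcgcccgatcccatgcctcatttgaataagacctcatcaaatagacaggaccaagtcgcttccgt

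The first of these gaps held 3 NF-Y motifs, the second 4 and the third 3. Their GC contents were 41.6%, 42.6% and 48.5%, whereas the median over the 719 divergent peaks with starts at least 60 bp apart was 62.7% between the starts, with a median CpG ratio of 0.856. The CpG ratio is the number of CpG dinucleotides over the number that base composition alone would give. The 235 bases between Hist1h2ap and Hist1h2br recur with 100% identity, in reverse orientation, between Hist1h2bq and Hist1h2ao, so reads within them cannot be assigned to 1 of the 2 copies.

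Divergent peaks had higher scores than promoter peaks at a single gene. The score is the authors' value for each peak, and with its scale unstated, it serves to rank and describe peaks. The median score was 361 over the 926 divergent peaks (quartiles 179 and 629, interval of the median 330 to 391) and 241 over the 11957 single-gene peaks (quartiles 114 and 473, interval 235 to 247). The difference of the medians was 120 (interval 88.1 to 150). Midpoints of divergent peaks also lay nearer to a start, at a median of 83 bp (73 to 91) against 184 bp (180 to 189) at single genes. Medians of 4 and 2 starts lay within 1 kb. The part of these differences in the score and width comparisons was not tested. Peaks more than 1 kb from any protein-coding start had a median of 102. Scores of 433 divergent peaks (46.8%, interval 43.57 to 49.98) lay in the top 10% of the whole list, above 391, against 31.9% of single-gene peaks (31.1 to 32.8). At the low end, 136 divergent peaks (14.7%, 12.6 to 17.1) scored below the list's median of 111, against 23.9% of single-gene peaks (23.2 to 24.7).

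**Figure D1:**
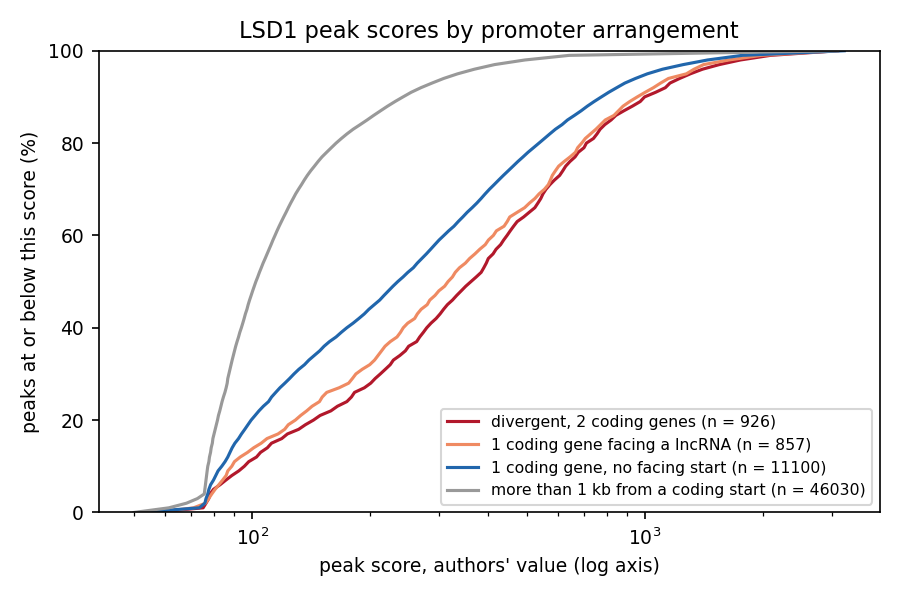
Cumulative share of peaks (vertical axis, percent) at or below each score (horizontal axis, log scale, the authors' value) for divergent peaks, single-gene peaks that do or do not face a long noncoding RNA start, and peaks far from coding starts. The divergent curve lies farthest right through most of its course, with the curve of peaks facing a noncoding start next to it (medians 361 and 316) and that of peaks facing no start to their left (median 235).

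Single-gene promoters that face the start of a long noncoding RNA head to head came close to divergent coding pairs. The 857 peaks of that kind had a median score of 316 (interval 290 to 341), which overlaps the interval of the divergent peaks, and 42.1% were in the top 10% of the list (38.9 to 45.5). The 11100 single-gene peaks that face no such start had a median of 235 (229 to 242). The CpG ratio of the 1 kb around the peak midpoint had medians of 0.764 for divergent peaks, 0.774 for peaks facing a noncoding start and 0.687 for those facing none. A CpG ratio of 0.6 or more was found at 86.6% of divergent peaks (84.3 to 88.7) and at 64.6% of single-gene peaks (63.7 to 65.4). When the 2 classes were compared within 10 classes of equal CpG ratio, the divergent median was higher in 8 of 10, by -11.15 to 136.67 over the classes. The mean of these differences was 49.8, so that the difference at equal CpG content was less than the difference of 120 without it.

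Divergent peaks were also wider. Their median width was 1070.5 bp (interval 1040 to 1110, range 454 to 5420) against 921 bp at single genes (911 to 932), a difference of 149.5 bp (117 to 190). Within the classes of equal CpG ratio they were wider in 7 of 10, by 38.95 bp in the mean. Score and width rose together over the 926 peaks (Pearson's r = 0.874 and Spearman's rho = 0.869 between their logarithms, both values coming from the same reads), and within classes of equal width the mean difference in score was 31.2. A further peak within 2 kb was less frequent at divergent peaks, 26.1% (23.4 to 29.1), than at single-gene peaks, 34.3% (33.5 to 35.2).

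Counted over genes, LSD1 was found at most divergent promoters. The annotation holds 1092 head-to-head pairs by this rule, 893 of them with a peak within 1 kb of both starts (81.8%, 79.4 to 84.0). Of 2152 genes in such pairs, 1842 had a peak midpoint within 1 kb of a start (85.6%, 84.0 to 87.0), where the same rule was met by 54.1% of all 21829 protein-coding genes and by 50.7% of genes outside pairs. The difference from genes outside pairs was 34.9 percentage points (33.2 to 36.5). Both genes of a pair often share a peak but were counted separately, so the intervals for pair genes are too narrow. Genes that face a noncoding start stood between, with 897 of 1138 (78.8%, 76.4 to 81.1).

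The excess of pair genes was larger where promoter CpG content was low or intermediate. In the fifth of 10 classes of promoter CpG ratio, 76.9% of pair genes had a peak and 60.8% of the other genes. In the highest class the shares were 93.3% and 91.9%, with overlapping intervals, and in the lowest class only 10 pair genes were available, of which 3 had a peak. The pair genes were higher in 10 of 10 classes, by 13.4 points in a mean that counts each class equally. Classes 7 to 10 held 360, 395, 439 and 345 of the pair genes. There the differences were smaller, at 5.82, 4.14, 0.988 and 1.39 points. Within classes of equal number of annotated starts per gene the difference was 27.5 points.

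**Figure D2:**
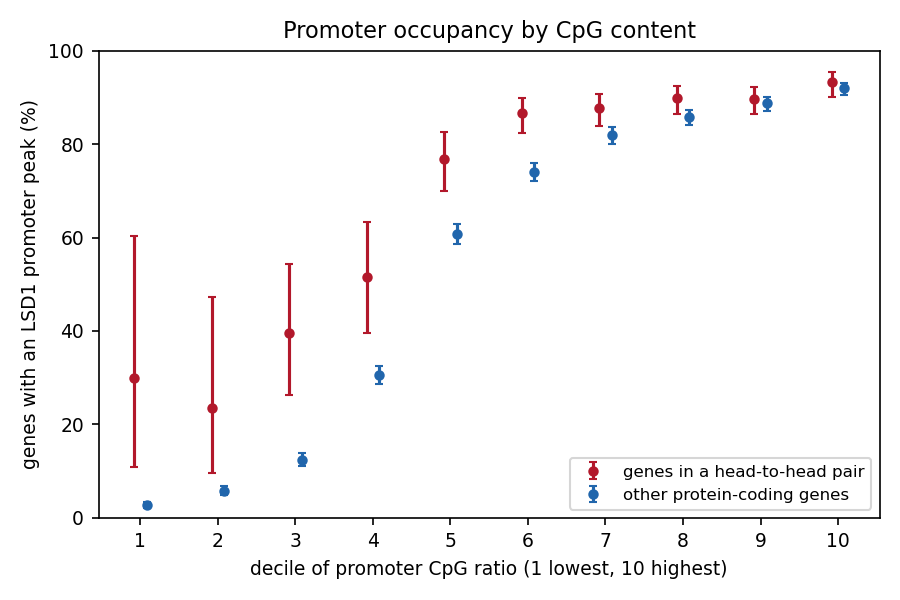
Share of genes with an LSD1 promoter peak (vertical axis, percent) in 10 classes of promoter CpG ratio (horizontal axis, lowest to highest) for genes in head-to-head pairs (red) and other protein-coding genes (blue), with Wilson 95% intervals as bars. The red points lie above the blue in each class and meet them at the right, at 93.3% and 91.9% in the highest class.

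The pairs themselves showed the same dependence on CpG content. Of the 22 pairs with a CpG ratio under 0.2, 4 had a peak (18.2%, 7.31 to 38.5), and of the 46 between 0.2 and 0.4, 12 had one (26.1%, 15.6 to 40.3). The share was 69.4% of 111 pairs between 0.4 and 0.6, 85.4% of 460 between 0.6 and 0.8, 89.6% of 415 between 0.8 and 1 and 92.1% of 38 above 1. Pairs with a peak had a median CpG ratio of 0.784 and a median GC content of 60.5%, and the 199 pairs without one had medians of 0.652 and 57.1%. The distance between the starts was alike, with medians of 118 bp (111 to 133) and 131 bp (116 to 153). Peak bases reached within 1 kb of 35 of the 199 pairs without a peak, their midpoints lying elsewhere.

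Some CpG-rich pairs had no peak by this rule. The 5 with the highest CpG ratio were Dnajb4/Fubp1 (1.10), a cochaperone and a single-strand DNA-binding regulator, Zcrb1/Pphln1 (1.04), 3110070M22Rik/Tmem267 (1.00), Banf1/Eif1ad (0.987), the first encoding a chromatin-bridging protein of the nuclear envelope, and the histone pair Hist1h2ag/Hist1h2bj (0.978). Peak bases lay within 1 kb of Dnajb4/Fubp1 and Hist1h2ag/Hist1h2bj, and none within 1 kb of the other 3.

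Chromosome X stood apart from the autosomes. Of its 30 head-to-head pairs 6 had a peak (20.0%, 9.51 to 37.3), against 887 of 1062 on the autosomes (83.5%, 81.2 to 85.6). The median score of these X peaks was 103, and that of the autosomal pairs was 387. The highest of the 6 was Psmd10/Atg4a, a proteasome assembly factor with an autophagy protease, at 514, and the other 5 scored between 77.86 and 109.5. X pairs had a lower median CpG ratio, 0.602 against 0.771, and genes outside pairs were also less often at a peak on X, 12.7% (10.7 to 15.0) against 53.02% (52.3 to 53.7). The part of CpG content in the X values was not tested.

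Most divergent peaks covered both promoters. Both starts lay inside 739 of the 926 peaks (79.8%, 77.1 to 82.3). The starts were a median of 117 bp apart (quartiles 64 and 234, range 1 to 987), a short distance beside the median peak width of 1070.5 bp. Among single-gene peaks, 77.1% (76.3 to 77.8) contained their nearest start. The midpoint fell between the starts in 216 peaks (23.3%), inside the minus-strand gene in 375 (40.5%) and inside the plus-strand gene in 335 (36.2%). It was nearer the minus-strand start in 51.7% (48.5 to 54.9), and its median offset from the centre of the pair was -15.5 bp (-42.5 to 8). Strand is set by the orientation of the assembly, so these values cannot show whether a given gene of a pair is favoured. The median distance from the centre, in either direction, was 189 bp, and 274 midpoints (29.6%) lay within 100 bp of it.

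Over the whole set the median reach was about equal into minus- and plus-strand genes, labels that depend on the orientation of the assembly. Single peaks were often lopsided. The median reach past the minus-strand start was 480.5 bp (466 to 512) and past the plus-strand start 465 bp (440 to 494). Single-gene peaks reached a median of 488 bp upstream (481 to 494) and 529 bp downstream of their nearest start (521 to 535). Among the divergent peaks that covered both starts, the longer reach was a median of 1.85 times the shorter. The peak over Uqcr10/Zmat5, a subunit of respiratory complex III with a splicing factor, was symmetrical and reached 465 bp past each start. That over Odr4/Tpr, whose second gene encodes a nuclear pore protein, reached 171 bp past Odr4 and 1050 bp past Tpr.

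**Figure D3:**
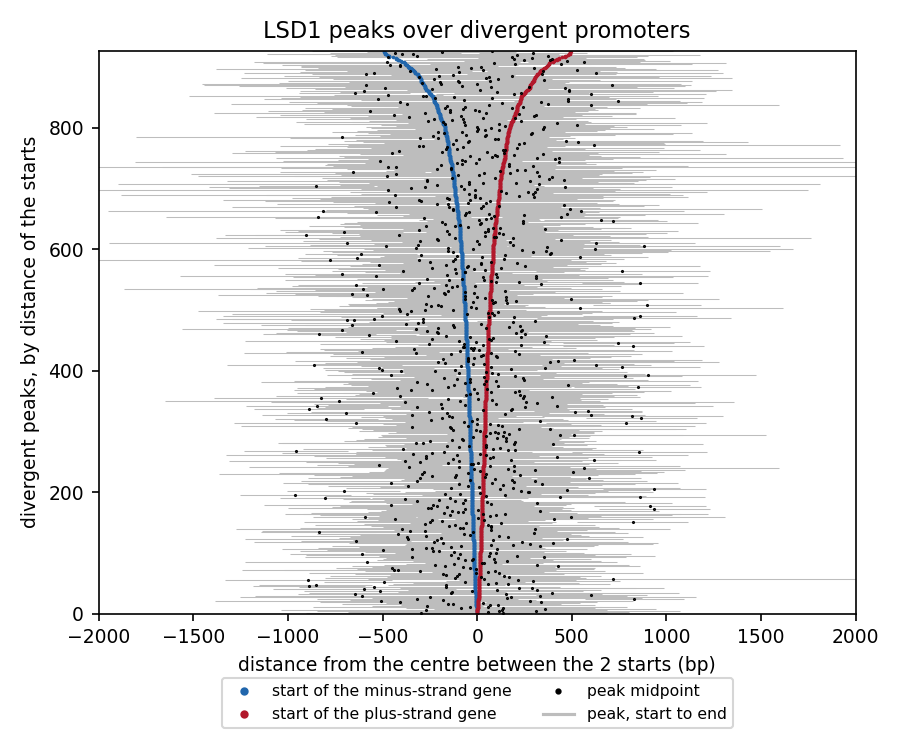
Each of the 926 divergent peaks drawn as a grey line from start to end, ordered on the vertical axis by the distance between the 2 starts and placed on the horizontal axis in bp from the centre between them (cut at 2000 bp on both sides). Midpoints (black) scatter to either side of the starts of the minus-strand (blue) and plus-strand gene (red), and 23.3% fall between them.

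At 51 pairs more than 1 peak met the rule, and at 40 of these there were peaks on both sides of the pair's centre. Over the 51 pairs, the outermost midpoints were a median of 894 bp apart. Each midpoint was measured from the centre of the closest facing starts in its reach. Where a pair has several such starts, as at Nsun6/Arl5b, this can differ from the distance along the chromosome. The 103 peaks of these pairs were lower and narrower, with a median score of 134 and width of 634 bp, than the 823 peaks alone at their pair, with medians of 395 and 1120 bp. Over Atp6v1a/Naa50, a subunit of the vacuolar proton pump with a protein acetyltransferase, the 2 peaks scored 274 and 595. At Mrpl43/Twnk, a mitochondrial ribosomal protein with the mitochondrial DNA helicase, they scored 59.95 and 266.97. At Emc8/Cox4i1, the second a subunit of cytochrome oxidase, both were low, 76.81 and 79.71.

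Median scores were higher at larger distances between the starts. The median was 275 (interval 238 to 332) for 164 peaks with starts up to 50 bp apart, 324 (269 to 384) from 51 to 100 bp and 360 (314 to 413) from 101 to 200 bp. It was 403 (347 to 511) from 201 to 300 bp, 429 (390 to 556) from 301 to 500 bp and 465 (277 to 670) for the 70 peaks with starts 501 to 1000 bp apart. Neighbouring classes overlapped, and the intervals of the first and the fourth class did not. Over the 926 peaks the correlation of log score with log distance was weak (r = 0.158, rho = 0.185), as were those with CpG ratio (r = 0.227, rho = 0.183) and GC content (r = 0.224, rho = 0.210). The peaks share 1 library.

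The farthest-spaced pairs differed in 2 other respects, both of which depend on the rule. A midpoint must lie within 1 kb of both starts, which leaves less room when the starts are far apart. A peak must also be wider to cover both. How much of the differences follows from this was not tested. In the class from 501 to 1000 bp, 28 of 70 peaks covered both starts, against 77.7% to 84.8% in the closer classes. A peak was found at 67.6% of these pairs (58.1 to 75.9), against 81.3% to 88.0% in the others, and their median CpG ratio was 0.630. At the limit of the rule, the starts of Zfyve26/Rad51b lay 978 bp apart (score 96.97), those of Asphd1/Sez6l2 981 bp (788) and those of Btf3l4/Txndc12 987 bp (1185). Just past it, Ddias/Prcp and 5330417C22Rik/1700013F07Rik, both 1005 bp apart, had peaks with scores of 473 and 126, and Nacc1/Trmt1, 1004 bp apart, had none. The midpoint limit kept Zcchc3/6820408C15Rik (990 bp), Gucd1/Snrpd3 (995 bp) and Serinc4/Hypk (996 bp), and it left out Urod/Hectd3, a second peak of Hnrnpa2b1/Cbx3 (both 1009 bp) and Sirt1/Dnajc12 (1012 bp).

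**Figure D4:**
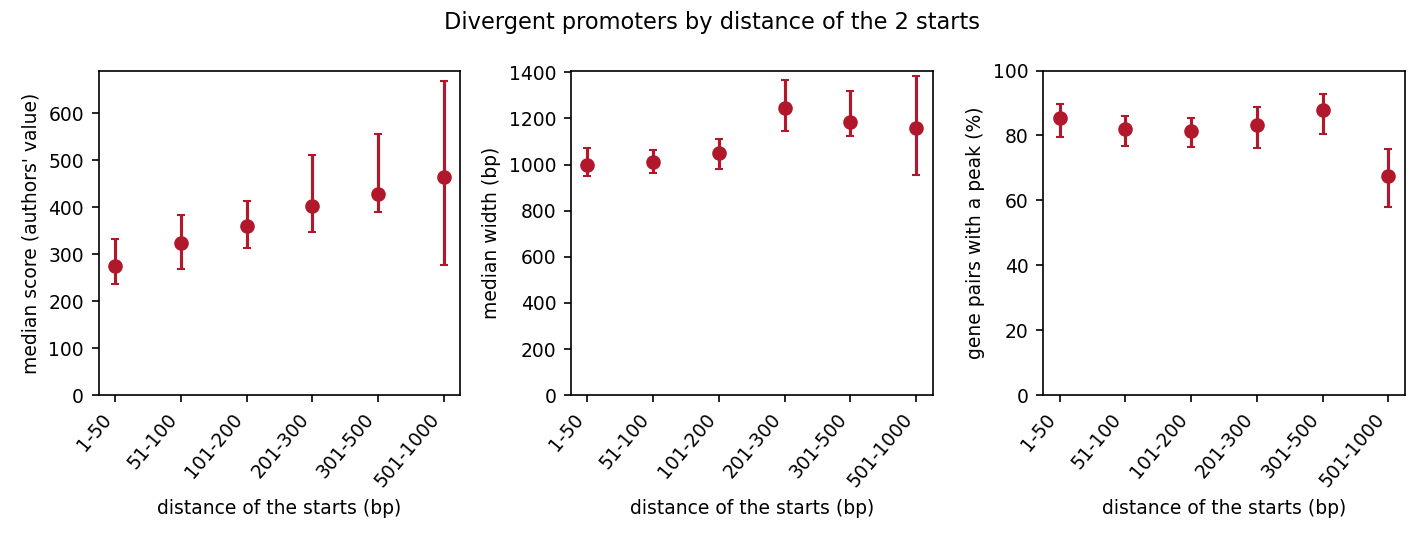
Median peak score (left, the authors' value), median peak width in bp (middle) and share of head-to-head pairs with a peak in percent (right) in 6 classes of distance between the 2 starts (horizontal axes, bp), with 95% intervals as bars. Median scores run from 275 in the closest to 465 in the farthest class, and the share of pairs with a peak is 67.6% in the farthest class.

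Consensus motifs of promoter-binding factors were more frequent at divergent than at single-gene promoters. Exact matches on either strand were counted in 300 bp windows, centred between the 2 starts for divergent peaks and on the nearest start for single-gene peaks, so that the first kind of window faces 2 promoters. The ETS motif CCGGAAGT was present in 133 divergent windows (14.4%, 12.3 to 16.8), in 5.61% of single-gene windows (5.21 to 6.04) and in 4.47% of the windows on all 54355 protein-coding starts. The difference was 8.75 points (6.60 to 11.2), and it was positive in 9 of 10 classes of equal GC content. The ratio of the 2 shares was 2.56 in windows on starts, the highest of the 11 motifs there. In windows centred on the peak midpoint the ETS shares were 7.78% and 3.91%, a difference of 3.86 points (2.26 to 5.79), and the ratio of 1.99 was below those of ZNF143 (2.29), NRF1 (2.10) and YY1 (2.07).

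Motifs of YY1, NRF1, ZNF143, the cAMP response element, NF-Y and the E-box were also more frequent at divergent starts. The YY1 motif AAGATGGC was found at 8.32% of divergent and 4.19% of single-gene starts (difference 4.13 points, 2.47 to 6.11) and at 3.53% of all starts. The NRF1 motif GCGCATGCG had shares of 4.64% and 2.65% (1.99 points, 0.776 to 3.57), with 1.78% over all starts. The motif of the cAMP response element, TGACGTCA, had 5.08% and 2.73% (2.35 points, 1.07 to 3.98), with 1.89% over all starts. The NF-Y motif CCAAT had 40.5% and 32.1% (8.42 points, 5.20 to 11.7), with 33.4% over all starts, and was higher in 7 of 10 GC classes. The E-box CACGTG had 11.2% and 8.36% (2.87 points, 0.924 to 5.12) on starts and 6.92% over all starts, but in windows on peak midpoints its difference of 0.492 points had an interval from -1.12 to 2.44. The ZNF143 motif CTACAATTC was rare, with 1.08% and 0.544% (0.536 points, 0.0221 to 1.44), and 0.370% over all starts. It was higher in only 4 of 10 GC classes, by 0.332 points in the mean, where the other motifs of this group were higher in 7 to 9.

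The other 4 motifs did not separate the classes in windows on starts. The SP/KLF motif GGGGCGGGG was in 21.2% of the windows of both classes (interval of the difference -2.63 to 2.82 points) and in 13.1% of all starts. Within classes of equal GC content, however, it was higher at divergent starts in 9 of 10 classes, by 4.42 points in the mean, and in windows on peak midpoints it was found at 15.7% and 12.3% (3.33 points, 1.05 to 5.88). The AP-1 motif TGANTCA had shares of 3.89% and 4.37%, with 5.99% over all starts. The promoter element TATAAA had shares of 4.10% and 4.78%, with 9.42% over all starts, and the C/EBP motif TTGCNNAA had 6.16% and 5.97%, with 8.45% over all starts. The intervals of these last 3 differences include 0. In windows on the peak midpoint, at least 2 different motifs out of ETS, NRF1, YY1, SP/KLF, NF-Y, ZNF143 and the cAMP response element occurred at 15.3% of divergent peaks (13.2 to 17.8), 8.15% of single-gene peaks and 1.34% of distal peaks. The motifs can overlap each other, and a match describes letters in the window and not a bound site.

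**Figure D5:**
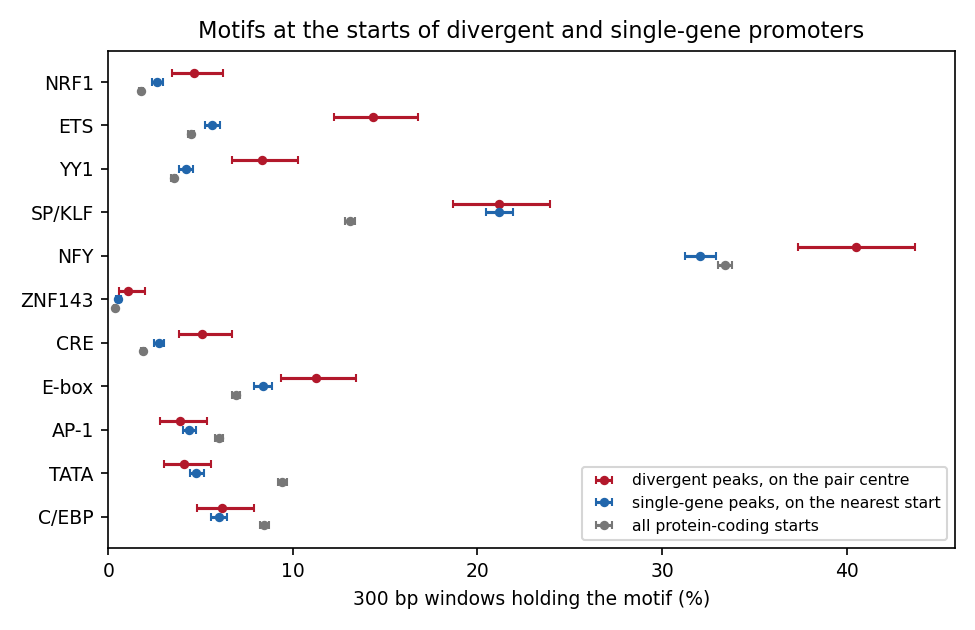
Share of 300 bp windows that hold each of 11 motifs (horizontal axis, percent) at the starts of divergent peaks (red), single-gene peaks (blue) and all protein-coding genes (grey), with Wilson 95% intervals as bars. The red ETS point, at 14.4%, stands clear of the blue at 5.61%, while the SP/KLF points of both classes coincide at 21.2%, without matching for GC content.

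Among divergent peaks, the ETS and NRF1 motifs went with score in opposite directions, and these differences were not tested. Peaks with the ETS motif in the midpoint window had a median score of 262 (207 to 359), and those without it 373 (334 to 396). With the NRF1 motif the median was 516 (339 to 722) and without it 354 (323 to 386). The intervals overlap in both cases, which does not show that the medians are equal. ETS was not alone, as medians were also lower with the motifs of YY1, AP-1, C/EBP and the cAMP response element (251 against 367 for the last). With the other motifs they were higher. Among single-gene peaks both motifs went with higher medians, 261 against 241 for ETS and 394 against 238 for NRF1. The ETS motif was in 27 of the 463 higher-scoring divergent peaks (5.83%) and in 45 of the 463 lower-scoring ones (9.72%). For NRF1 these counts were 26 (5.62%) and 13 (2.81%). Windows on the pair centre held the SP/KLF motif at 20.6% of pairs with a peak (18.1 to 23.4) and at 12.6% of pairs without one (8.66 to 17.9). For every other motif searched the intervals overlapped, as for ETS with 13.8% (11.7 to 16.2) and 8.04% (5.01 to 12.7). The AP-1, TATA and C/EBP motifs were less frequent at pairs with a peak, and the rest more frequent. These shares were not matched for GC content, which had medians of 60.5% at pairs with a peak and 57.1% at pairs without.

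The 5 divergent peaks at the top of the ranking all lay over pairs of H2A and H2B genes on chromosome 13 and shared the score 3100, a value at which several peaks of the list are tied. They were Hist1h2bl/Hist1h2ai (chr13:21714473-21718955), Hist1h2an/Hist1h2bp (chr13:21785444-21789151), Hist1h2bq/Hist1h2ao (chr13:21807191-21812610), Hist1h2ap/Hist1h2br (chr13:21830937-21835372) and Hist1h2ac/Hist1h2bc (chr13:23682598-23686201). Their widths of 3604 to 5420 bp cover both genes' starts and much beyond. Other histone pairs were lower, with 1416 at Hist1h2ak/Hist1h2bn, 824 at Hist1h2bh/Hist1h3f and 109 at the pair Hist1h2ba/Hist1h2aa. Of 14 pairs with a replication-dependent histone gene, 9 had a peak and 5 had none, beside 81.8% of all head-to-head pairs with a peak. These genes are near-identical copies, so how reads were placed among them is uncertain. Without histone genes the difference in median score between divergent and single-gene peaks was 118.

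The next 5 peaks in rank lay over pairs of unrelated genes. The highest was Usp5/Cdca3 (chr6:124828152-124830293), a deubiquitinase with a cell division gene, at 2820. Odr4/Tpr (chr1:150392591-150393888) had 2382 and B3galt6/Sdf4 (chr4:155991420-155993490), an enzyme of glycosaminoglycan linkage with a Golgi calcium-binding protein, 2277. Nop14/Grk4 (chr5:34659150-34661353), a ribosome assembly factor with a receptor kinase, had 2201, and Aamp/Pnkd (chr1:74284130-74285583) had 2099. All 10 of the highest peaks covered both starts.

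The 5 lowest divergent peaks scored 55.74 at Xrcc4/Tmem167, 58.39 at Hras/Lrrc56, 59.95 at Mrpl43/Twnk, 60.99 at Esf1/Ndufaf5 and 71.77 at 1110059G10Rik/Kif15. At Hras/Lrrc56, Mrpl43/Twnk and Esf1/Ndufaf5 a second, higher peak met the rule. Xrcc4 is a DNA ligation factor, Hras a signalling GTPase and Ndufaf5 an assembly factor of respiratory complex I. Of these 5 peaks, those at Hras/Lrrc56 and 1110059G10Rik/Kif15 covered both starts. In all, 108 divergent peaks had a score of 100 or less.

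The textbook divergent pairs that met the rule all had a peak, beside 81.8% of all head-to-head pairs. Of 20 such pairs listed, 14 met the rule, and the highest peak covered both starts at 12. Their median score was 404, from 123 to 1345. The DNA repair gene Brca1 and the autophagy receptor Nbr1 (chr11:101551489-101553126, starts 270 bp apart) had 1345. Hnrnpa2b1/Cbx3, an RNA-binding protein with a heterochromatin protein, had 765, the damage kinase Atm with the histone gene activator Npat 758, and Gart/Son, a purine synthesis enzyme with a splicing cofactor, 710.

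Further down in this group, the mitochondrial chaperonins Hspd1/Hspe1 had 413 and Mrps12/Sars2, a mitochondrial ribosomal protein with the mitochondrial seryl-tRNA synthetase, 394. The cytosolic and mitochondrial histidyl-tRNA synthetases Hars/Hars2 had 215. The replication helicase subunit Mcm4 with the repair kinase Prkdc had 207, the antigen-processing pair Psmb9/Tap1 203, Surf1/Surf2 170 and the mitochondrial deacetylase Sirt3 with the proteasome subunit Psmd13 123. Neither peak at Wrap53/Trp53, with scores of 269.99 and 92.42, was centred on the gap shown above, and the midpoint of the higher lay 809 bp inside Wrap53. At Mcm4/Prkdc the peak stopped short of the Mcm4 start and covered the Prkdc start alone. Among the 6 pairs that did not meet the rule, Ppat/Paics and Col4a1/Col4a2 overlap at their annotated 5' ends, Gpr108/Trip10 starts lie 1766 bp apart, Acat2/Tcp1 do not start head to head in this annotation, and Abcf1/Prr3 are not on opposite strands.

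Genes of mitochondrial energy metabolism were often part of divergent promoters. Head-to-head pairs take in 9.86% of all protein-coding genes, 33.0% of 97 nuclear-encoded respiratory chain genes (24.4 to 42.8) and 33.3% of 78 mitochondrial ribosomal protein genes (23.9 to 44.4). Both lists were gathered by symbol, and some assembly factors are among them. These shares describe the annotation and not the LSD1 data. The background for the counts that follow is that 1762 of all 2152 genes in pairs belonged to a pair with a peak. A divergent peak lay over 26 of the 32 respiratory chain genes in pairs, with a median score of 316. The 49 respiratory chain genes counted with a single-gene peak had a median of 286. Genes with a single-gene peak are the comparison for each list, and they do not take in every gene with a peak outside pairs. Over all genes the corresponding medians were 387 and 299.

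Among the respiratory chain genes the highest were Uqcr10/Zmat5 at 913, the complex I subunit Ndufa11 with Vmac at 780 and Atp5j/Gabpa at 670. The last pair joins a subunit of ATP synthase with an ETS-family activator of mitochondrial genes, and its peak covered the Gabpa start but not the Atp5j start 686 bp away. Atp5d/Cbarp was without a divergent peak. Of the mitochondrial ribosomal protein genes, 24 of 26 in pairs had a peak, with a median of 362 against 217 for those with a single-gene peak. Mrpl32/Psma2, with a proteasome subunit as partner, had 1468, Mrpl50/Zfp189 1412 and Mrpl49/Fau, whose second gene encodes a ribosomal protein fusion, 1028. Mrpl21 was in a pair without a peak.

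For mitochondrial import, 5 of 7 genes in pairs had a peak, with 654 at Timm21, 328 at Timm10b and 200.5 at Timm23, and Timm17b had none. Their median of 200.5 was below the 289 of import genes with a single-gene peak. All 5 mitochondrial carriers in pairs had a peak, led by the folate carrier Slc25a32 at 449 and the oxoglutarate carrier Slc25a11 at 393.5. The median of these 5 was 193, below the 391 of carriers with a single-gene peak. Of the fatty acid oxidation genes, 6 of 7 in pairs had a peak. Etfdh, which passes electrons from fatty acid oxidation to ubiquinone, had 1739 (chr3:79628320-79629850), Acaa1a, a peroxisomal thiolase that shares its promoter with the adaptor Myd88, 1151 and Hadha/Hadhb 446. The median was 446 in pairs and 318 for those with a single-gene peak.

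Among genes of protein synthesis, folding and breakdown, divergent peaks lay over 8 of 9 aminoacyl-tRNA synthetase genes in pairs (Fars2/Lyrm4 677, Yars 620, Sars2 394, none at Wars), 13 of 14 cytosolic ribosomal protein genes (Rpl15 1177, Rpl7a 1142, Rps18 631, none at Rps2) and 9 of 9 proteasome genes (Psma2 1468, Psma7 633, Psmd10 514). Of 19 chaperone genes in pairs 14 had a peak, with 1814 at the endoplasmic reticulum chaperone Hsp90b1 with Ttc41, 1681 at the chaperonin subunit Cct7 with Pradc1 and 790 at Dnajc17, and Dnajb11 had none. Median scores in these 4 groups were lower in pairs than for genes with a single-gene peak. They were 261 against 301 for the synthetases, 265 against 294 for the ribosomal proteins, 201 against 221 for the proteasome and 413 against 451 for the chaperones. The direction of this comparison thus differed between gene lists, and its differences were not tested.

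DNA repair and replication genes were also often in pairs, 37 of 105 (35.2%, 26.8 to 44.7), and 33 of the 37 carried a divergent peak, beside 81.8% of all head-to-head pairs. Their median score was 314, against 235 for repair and replication genes with a single-gene peak. After Brca1 the highest were Xrcc1/Pinlyp, a scaffold of single-strand break repair, at 958 and Xpc/Lsm3, a damage sensor of nucleotide excision repair, at 808. Palb2/Dctn5, the partner gene of Brca2, had no peak.

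Brown fat genes and genes listed with LSD1 were in divergent promoters about as often as all genes (9.86%). Of 30 brown fat genes 3 were in pairs (10.0%, 3.46 to 25.6), 2 of them with a peak: Gabpa at 670 and Twnk at 267, while Tfb2m/Cnst had none. Of 30 lipid synthesis genes 1 was in a pair, acetyl-CoA carboxylase Acaca with Tada2a, at 225. Of 30 genes listed for LSD1, its partners and related enzymes, 3 were in pairs (10.0%) and all 3 had a peak. Among them were the second flavin-dependent histone demethylase Kdm1b with Tpmt at 643 and the histone-binding Rbbp4 with Zbtb8os at 528. The collagen IV genes Col4a3/Col4a4 form a pair without a peak.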

How the data were processed

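LSD1 ChIP-seq of 1 library of mouse brown adipocytes was analysed from the deposited peak list; the input library's data were not used here. Per the labels' protocols, reads from a HiSeq 2000 were mapped to mm10 with Bowtie2, and the submitters' processing notes list MACS 1.41. For the peak threshold, read filters and use of the input, no details were given in the sources used here. The score of each peak is the authors' deposited value, of unstated scale, and was used to describe and rank peaks.

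Peaks were placed on GRCm38.p6, the same chromosomes as mm10, with GENCODE M21 (54355 protein-coding starts, genes identified by symbol). The CpG ratio was taken over 1 kb, exact motif matches over 300 bp windows. Shares carry Wilson intervals, their differences Newcombe intervals and medians order-statistic intervals, at 95%. Matched comparisons used 10 classes. No test between cultures was possible with 1 library. Classification, motif search and intervals were tested on simulated data. Python 3.11.15, pandas 2.3.3, scipy 1.17.1 and statsmodels 0.14.6 were used. The members, gene lists and pairs were chosen with earlier results of these data known.

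Named were the 10 highest and 5 lowest divergent peaks, 20 textbook pairs, from each of 15 lists the 3 members with the highest divergent peak and the first pair member without one, the 5 CpG-richest pairs without a peak and 3 pairs on each side of the 1 kb limits. Other named pairs were chosen after their values were seen: Psmd10/Atg4a as the highest pair on chromosome X, Atp6v1a/Naa50, Emc8/Cox4i1 and the histone pairs below the top. Sequences shown came from the named pairs with 60 to 300 bp between the starts. Of the tRNA synthetase symbols 1 was not matched to the annotation. Some items that this rule would name are not reported here.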

Additional observations from a re-analysis of the deposited data

How the results depend on the processing

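All 49 alternatives kept the direction of the result they recomputed, but only the differences between classes could have reversed. The number of divergent peaks, the share of pairs with a peak and the share covering both starts cannot be negative. Of the 49, 34 stayed within the interval or within 1.5 times the count of the reported value. The other 15 moved as follows. With peaks scoring at least 100, 74.5% of pairs had a peak, the width difference was 107 bp and 85.2% of divergent peaks covered both starts. With starts within 500 bp of the midpoint, 67.7% of pairs had a peak and 94.1% of peaks covered both starts. With any base of the peak within 1 kb, these were 84.5% and 72.0%. With the most upstream start of each gene, the width difference was 111.5 bp and the difference between genes in and outside pairs 37.3 points. With starts at most 300 bp apart, 83.7% covered both starts. Within classes of equal CpG ratio the differences were 49.8 in score, 38.95 bp in width and 13.4 points between genes. These are means that count each class equally. The score difference of 31.2 within classes of equal width and the gene difference of 27.5 points within classes of equal number of starts were added after the data were seen. Divergent peaks numbered 675 with the most upstream starts and 1071 when overlapping 5' ends were included. The cause of these moves was not tested. No paired analysis was possible because there was 1 LSD1 library. Without read counts, the depth that limits the weakest peaks is unknown.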
